A study of Mus musculus with 6 samples.

Results

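The dorsal and ventral zone genes are 8 genes whose expression is known to differ between the upper and lower parts of the mouse olfactory epithelium. The dorsal genes are Nqo1, Acsm4, Robo2 and Msx1, and the ventral genes are Ncam2, Nfia, Nfib and Nfix. They were chosen by name and not by their values, and each was represented by the probe set that the platform annotation assigns to that symbol alone; where there were several, the brightest over all arrays was used. All 8 were found among the 14860 genes with such a probe set; 7 had 1 probe set and Nfib had 2.

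Expression was measured with Affymetrix Mouse Exon 1.0 ST arrays in olfactory epithelium of 3 C57Bl/6 mice, 5 days after 1 nostril had been closed (unilateral naris occlusion). There were 3 arrays of the occluded (ipsilateral) side and 3 of the contralateral side, and both sides came from operated animals. Per the labels, closing a nostril decreases odour stimulation on its own side and increases it on the other, so the contralateral side was not an untreated control. The labels name no cell sorting and do not say which arrays share a mouse. Values are RMA log2 values, so that a difference of 1 is a doubling; levels of different probe sets are not on a common scale and were not compared.

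The olfactory epithelium is divided into zones along its dorsal to ventral axis, and a sensory neuron expresses an odorant receptor drawn from the set of its zone. Dorsal neurons carry Nqo1 and Acsm4 and send their axons to the dorsal olfactory bulb with the help of the Slit receptor Robo2, while neurons of the other zones carry the adhesion molecule Ncam2. Nuclear factor I proteins (Nfia, Nfib, Nfix) are transcription factors that are more abundant toward the ventral zones and take part in setting which receptors can be chosen there. Class I odorant receptors, the family shared with fish, are expressed mostly in the dorsal zone and offer a zonal readout apart from the 8 genes. In these bulk samples fewer cells of a zone and less RNA per cell cannot be told apart, and position within the tissue was not measured.

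The promoter sequences of Nqo1, Acsm4 and Msx1 are shown because these dorsal genes did not move alike over the arrays. The letters are the 250 bases before the annotated start, 5′ to 3′, from RefSeq on GRCm38.p6, and capitals mark matches to 6 motifs searched on both strands.
Nqo1, chr8:107403206-107403455, minus strand: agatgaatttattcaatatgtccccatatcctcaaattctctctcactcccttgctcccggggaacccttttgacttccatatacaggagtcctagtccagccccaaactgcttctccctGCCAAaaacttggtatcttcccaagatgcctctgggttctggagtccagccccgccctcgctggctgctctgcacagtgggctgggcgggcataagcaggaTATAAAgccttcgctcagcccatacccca
Acsm4, chr7:119689776-119690025, plus strand: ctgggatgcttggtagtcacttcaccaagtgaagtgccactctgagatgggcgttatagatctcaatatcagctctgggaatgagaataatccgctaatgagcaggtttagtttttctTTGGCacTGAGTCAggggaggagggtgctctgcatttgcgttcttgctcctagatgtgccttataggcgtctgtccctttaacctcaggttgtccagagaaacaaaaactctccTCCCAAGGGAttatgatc
Msx1, chr5:37824586-37824835, minus strand: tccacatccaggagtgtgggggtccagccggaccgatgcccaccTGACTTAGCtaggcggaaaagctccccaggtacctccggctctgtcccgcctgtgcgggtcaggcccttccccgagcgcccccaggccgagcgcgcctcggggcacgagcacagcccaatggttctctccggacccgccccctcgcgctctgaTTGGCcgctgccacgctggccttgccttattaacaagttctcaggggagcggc
The motifs were TATAAA (known as TATA box), TTGGC (one arm of a nuclear factor I site), the palindromic EBF site (of factors first described as Olf-1 in olfactory neurons), TAATTA (core of LHX sites), TGACNNNGC (antioxidant response element) and TGANTCA (AP-1 site), where N is any base. The Nqo1 window holds a TATAAA 29 bases before the start and a GCCAA, the reverse of TTGGC, 130 bases before it. The Acsm4 window holds the EBF site TCCCAAGGGA, in which the middle pair of bases was free, 18 bases before the start, a TGAGTCA 125 bases before it and a TTGGC 132 bases before it. The Msx1 window holds a TTGGC 53 bases before the start and a TGACTTAGC 206 bases before it. Among 32851 promoter windows of the same length, the EBF site occurs in 0.779%, TAATTA in 4.84%, TGANTCA in 6.75%, TGACNNNGC in 10.2%, TATAAA in 12.4% and TTGGC in 41.5%. The motifs were chosen with the sequences in view, and a match is a description of the letters only. Of the 8 genes, 7 had 12 windows in all; those of Ncam2 and Nfia held none of the 6 motifs.

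As for the arrays as a whole, occluded replicate 1 stood apart, with correlations of 0.977 to 0.983 with the other arrays, against 0.986 to 0.989 among the rest. Its median log2 value, 8.12, lay above the 7.94 to 8.03 of the other arrays. Omp, the olfactory marker protein of mature sensory neurons, was at 13.61 to 13.74 on the occluded side and at 13.51 to 13.64 on the contralateral side, and the 6 measured genes not expected in nasal tissue averaged 5.76 to 5.90 on the occluded side and 5.73 to 5.96 on the contralateral side. The differences of the zone genes, and the medians of the class I receptors and of the lists of zone-related genes, are given with and without occluded replicate 1.

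None of the 8 zone genes passed the test between the sides. Fitted with limma and adjusted by Benjamini-Hochberg across the 23332 probe sets, 0 of 8 members were called, and 0 probe sets in all (0%). With an unadjusted p under 0.05 the count was 0 of 8 members and 1233 probe sets (5.28%; 3.81% higher and 1.47% lower). The sides did not overlap in 1 member, Ncam2, which lay lower on the occluded side; 3.24% of all probe sets did so in that direction and 10.7% in either. The members' log2 differences, occluded minus contralateral, ran from -0.24 for Ncam2 to 0.19 for Nfia, beside a median of 0.06 over all probe sets. They averaged out within each zone, with a median of 0.01 for the 4 dorsal genes and of 0.03 for the 4 ventral genes; both signs turned when each array was centred on its median, to -0.07 and -0.05.

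**Figure D1:**
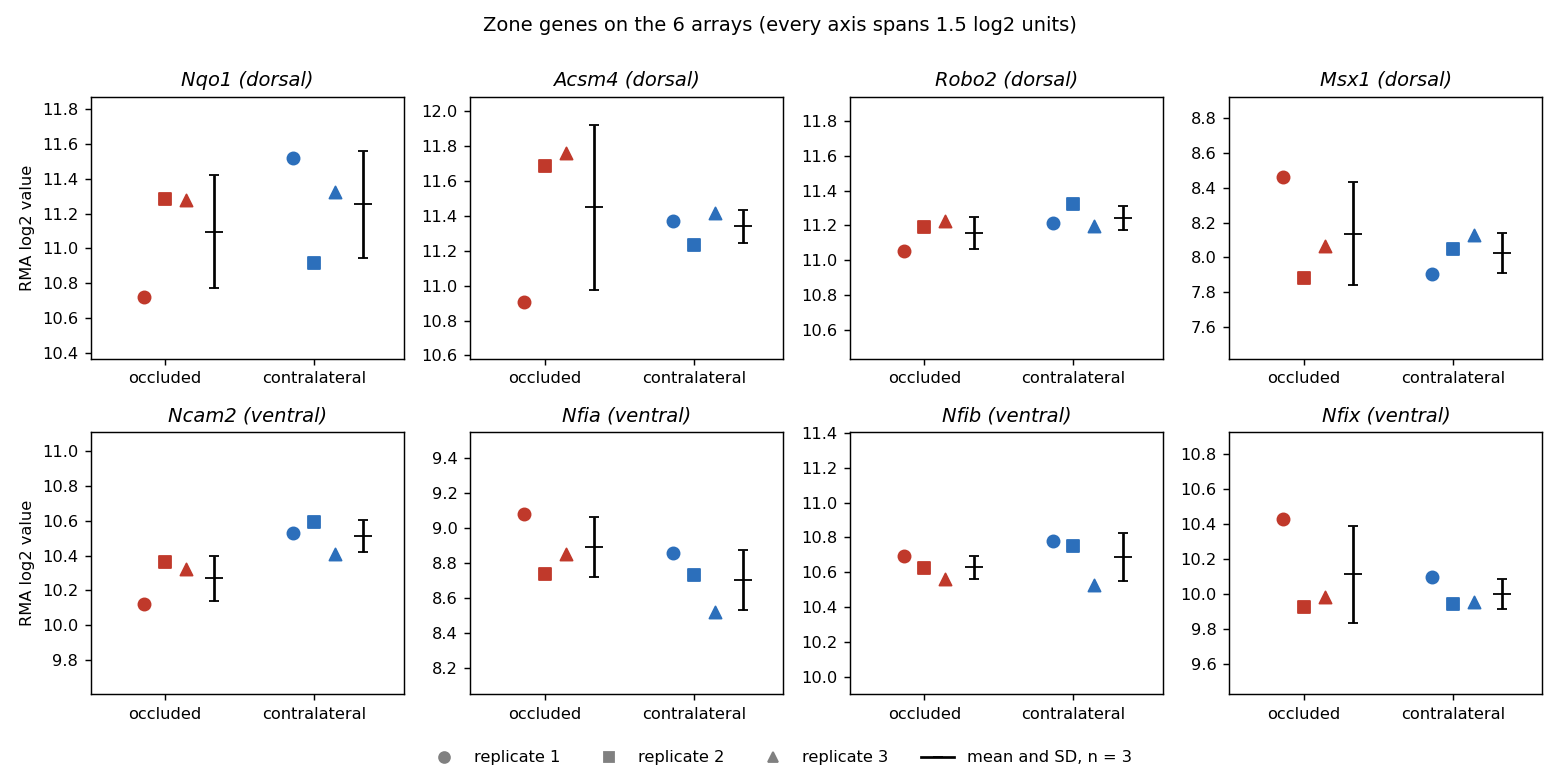
RMA log2 values (y axis) of the 8 zone genes on the 3 occluded (red, left) and 3 contralateral (blue, right) arrays; marker shapes give the replicate number, and black bars the mean and SD of each side. The sides overlap in every gene but Ncam2, whose occluded arrays lie at 10.12 to 10.37 and contralateral arrays at 10.41 to 10.59.

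Among the dorsal genes, Nqo1, an enzyme that detoxifies quinones, had log2 values of 10.72, 11.28 and 11.28 in occluded replicates 1 to 3, against 11.52, 10.91 and 11.33 in the contralateral replicates. Occluded replicate 1 and contralateral replicate 2 were the low arrays, 1 on each side, and the sides overlapped. The mean was 11.10 ± 0.32 on the occluded side and 11.25 ± 0.31 on the contralateral side (SD, n = 3 each). The log2 difference was -0.16 (SE 0.21), with a 95% interval of -0.66 to 0.35, and the limma adjusted p was 0.871. Without occluded replicate 1 it was 0.030, with an interval of -0.43 to 0.49, so its sign rested on that array.

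Acsm4, an acyl-CoA synthetase of the dorsal epithelium, had log2 values of 10.91, 11.68 and 11.76 on the occluded side, against 11.37, 11.23 and 11.42 on the contralateral side. The occluded side held both the lowest array and the highest ones, and the contralateral values lay between them. The log2 difference was 0.11 (SE 0.23; 95% interval -0.43 to 0.65; limma adjusted p 0.911). Occluded replicate 1 lay 0.82 below the mean of occluded replicates 2 and 3, a 1.76-fold gap, and the SD of the side was 0.47, against 0.09 on the contralateral side (n = 3 each). Without that array Acsm4 was higher on the occluded side by 0.38 (SE 0.09; interval 0.15 to 0.61), with an unadjusted limma p of 0.0074 and an adjusted p of 0.683. The sign turned without occluded replicate 2 (-0.0062) and without occluded replicate 3 (-0.045).

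Robo2, the Slit receptor of dorsal axons, was the steadiest dorsal gene. It had log2 values of 11.06, 11.19 and 11.22 on the occluded side, against 11.21, 11.32 and 11.20 on the contralateral side, with an overlap at the upper end of the occluded arrays. The log2 difference was -0.09 (SE 0.09; 95% interval -0.30 to 0.13; limma adjusted p 0.848), and -0.03 without occluded replicate 1. Its within-side SD was larger than that of 13.7% of all probe sets, a share that was 87.8% for Acsm4.

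Msx1, a homeobox transcription factor of craniofacial development, ran the other way from the first pair. It had log2 values of 8.46, 7.88 and 8.06 on the occluded side, against 7.90, 8.05 and 8.13 on the contralateral side. Occluded replicate 1 was the highest array and occluded replicate 2 the lowest. The log2 difference was 0.11 (SE 0.16; 95% interval -0.27 to 0.49; limma adjusted p 0.881), and -0.05 without occluded replicate 1.

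Among the ventral genes, Ncam2 had log2 values of 10.12, 10.37 and 10.32 on the occluded side, against 10.53, 10.59 and 10.41 on the contralateral side. Every occluded array lay below every contralateral one. The mean was 10.27 ± 0.13 on the occluded side and 10.51 ± 0.09 on the contralateral side (SD, n = 3 each). The log2 difference was -0.24 (SE 0.10), or 1.18-fold lower, and its 95% interval was -0.49 to 0.01. The unadjusted limma p was 0.056 and the adjusted p 0.823, so the difference did not pass. It was -0.17 without occluded replicate 1 and -0.32 with each array centred on its median. Its paralog Ncam1, the neural cell adhesion molecule found on sensory neurons of all zones, was at -0.08 (SE 0.09).

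Nfia had log2 values of 9.08, 8.74 and 8.85 on the occluded side, against 8.86, 8.73 and 8.52 on the contralateral side, and the sides overlapped. Its log2 difference was 0.19 (SE 0.13; 95% interval -0.13 to 0.51; limma adjusted p 0.823), and 0.09 without occluded replicate 1. Nfix, at 10.43, 9.92 and 9.98 on the occluded side and 10.10, 9.94 and 9.96 on the contralateral side, differed by 0.12 (SE 0.15; interval -0.24 to 0.47; limma adjusted p 0.867). For both genes occluded replicate 1 was the highest array, and without it Nfix was at -0.04.

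Nfib stayed within a range of 0.25 over the 6 arrays. It had log2 values of 10.69, 10.63 and 10.56 on the occluded side, against 10.78, 10.75 and 10.53 on the contralateral side. The log2 difference was -0.06 (SE 0.10; 95% interval -0.30 to 0.19; limma adjusted p 0.897), and -0.09 without occluded replicate 1. The second Nfib probe set gave 0.04 (SE 0.10), so the 2 probe sets differed in sign within their errors. Nfic, the remaining member of the family, was at 0.26 (SE 0.16), with occluded replicate 1 again the highest array at 9.01.

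**Figure D2:**
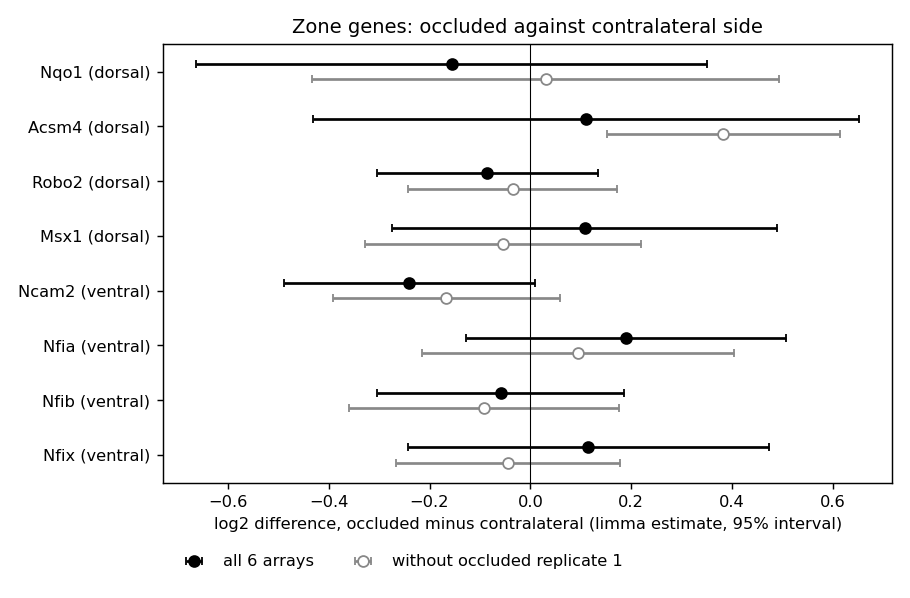
Log2 difference, occluded minus contralateral, of each zone gene (x axis), with the limma 95% interval, over all 6 arrays (black) and without occluded replicate 1 (grey, open). All black intervals include 0; without that array the interval of Acsm4 runs from 0.15 to 0.61, and the points of Nqo1, Msx1 and Nfix change sign.

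The larger pattern in these genes was between arrays of the occluded side. In occluded replicate 1 the 4 genes Nqo1, Acsm4, Robo2 and Ncam2 were at their lowest over the 6 arrays, and Msx1, Nfia and Nfix at their highest. Of the 8 members, 50% were lowest and 37.5% highest in that array, beside 15.2% and 46.0% of all probe sets. The share of members at their highest was thus below that of all probe sets. Centring each array on its median took the side difference of Msx1 from 0.11 to 0.03 and that of Nfix from 0.12 to 0.04. The low genes are an enzyme pair, a guidance receptor and an adhesion molecule, and they include the ventral Ncam2. The high ones are transcription factors and include the dorsal Msx1, but Nfib, also a transcription factor, was not among them. Both sets thus held genes of both zones.

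To set the zones against each other, each gene's deviation from its own mean over the 6 arrays was averaged over the 4 dorsal and over the 4 ventral genes, and the ventral mean was subtracted. The dorsal minus ventral contrast was -0.28, 0.11 and 0.16 log2 units in occluded replicates 1 to 3, and -0.05, -0.11 and 0.18 in contralateral replicates 1 to 3. Its SD was 0.24 on the occluded side and 0.15 on the contralateral side (n = 3 each), and the side means differed by less than either. With Nqo1 and Acsm4 alone as dorsal genes, a choice made after seeing the data, the contrast was -0.58, 0.26 and 0.28 on the occluded side, and 0.07, -0.24 and 0.21 on the contralateral side.

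**Figure D3:**
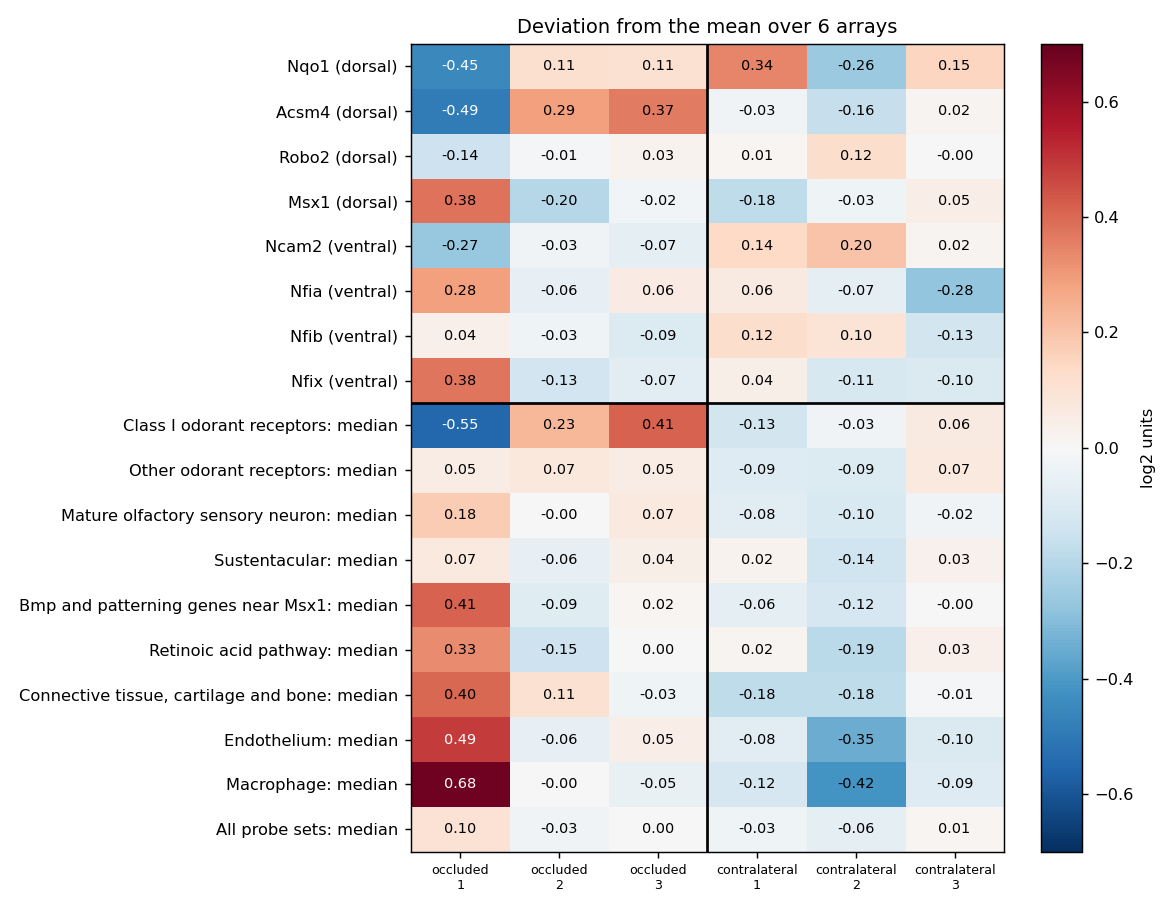
Deviation of each zone gene from its mean over the 6 arrays (log2 units, blue low and red high), with the median deviation of gene lists below the line; occluded arrays are left of the vertical line. Occluded replicate 1 is low for Nqo1 (-0.45), Acsm4 (-0.49) and the class I receptors (-0.55), and high for Msx1 (0.38), Nfix (0.38) and the macrophage list (0.68).

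Over the 6 arrays, which include both sides of the same 3 mice, the pair most alike of the 28 pairs of members was Robo2 and Ncam2, 1 gene of each zone, with a Pearson r of 0.89. Nfia and Nfix had an r of 0.82 and Nqo1 and Acsm4 one of 0.71, while Msx1 ran against Nqo1 (-0.78) and Acsm4 (-0.73). These are descriptions of 6 points.

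Class I odorant receptors, the dorsal receptor class, followed Nqo1 and Acsm4 over the occluded arrays. They were taken as the genes numbered Olfr543 to Olfr699, of which 92 were measured, all on chromosome 7. The set rests on these numbers, and the class of each receptor was not checked. Olfr78, another class I receptor, shared its probe set with a second gene and was not used. Their median deviation was -0.55, 0.23 and 0.41 log2 units in occluded replicates 1 to 3, against -0.13, -0.03 and 0.06 in contralateral replicates 1 to 3. In occluded replicate 1, 70 of the 92 (76.1%) were at their lowest, against 168 of the 620 other odorant receptors (27.1%), whose median deviation there was 0.05. In occluded replicate 3, 63 of the 92 were at their highest, beside 9.91% of all probe sets. Receptor genes of nearly the same sequence may share probes, which leaves the value of any 1 receptor uncertain.

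Between the sides the class I receptors did not differ beyond that spread. Their median log2 difference was 0.06, with 57 of 92 above 0, beside 15130 of all 23332 probe sets, and 0 passed the limma test. Without occluded replicate 1 the median was 0.34 and 85 of 92 lay above 0, beside 0.02 and 12903 for all probe sets. As an example chosen after the values were seen, Olfr586 had log2 values of 7.19, 9.20 and 9.16 on the occluded side, against 8.77, 9.08 and 9.09 on the contralateral side. Among the class I receptors it had the largest gap between occluded replicate 1 and the mean of occluded replicates 2 and 3, at -1.99. Olfr550, chosen in the same way, went the other way, with 9.57, 9.07 and 9.23 on the occluded side and 9.03, 8.95 and 9.22 on the contralateral side.

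**Figure D4:**
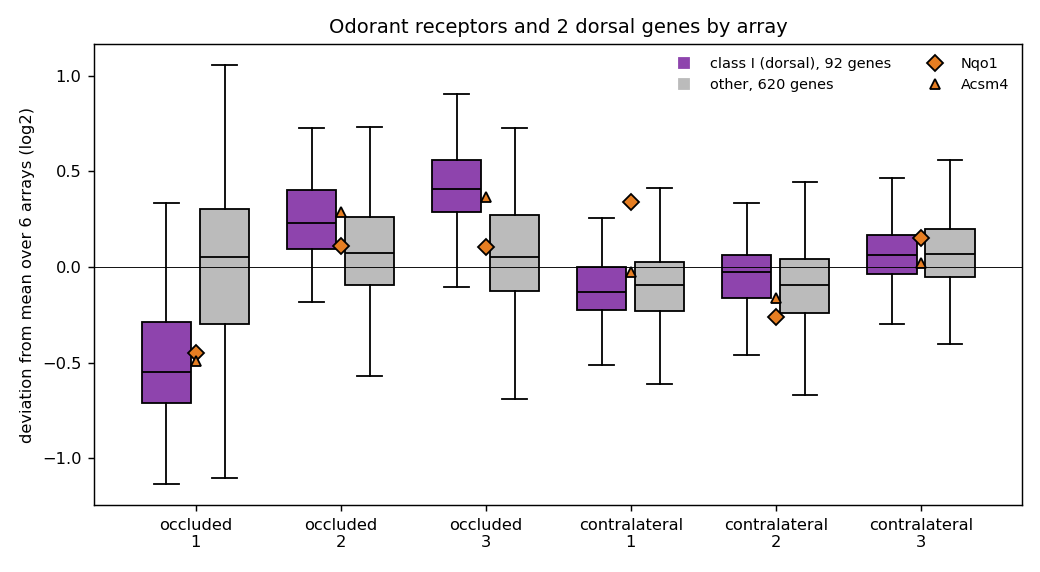
Deviation from the mean over the 6 arrays (y axis, log2 units) of 92 receptors taken as class I by number (purple) and 620 other odorant receptors (grey) on each array. Boxes give median and quartiles, and whiskers run to the last value within 1.5 times the box, with Nqo1 and Acsm4 as orange symbols. The class I box of occluded replicate 1 runs from -0.71 to -0.28, and that of occluded replicate 3 from 0.29 to 0.56.

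The genes whose profile was most like the mean dorsal profile were sought among 5898 candidates of at least median level and at least the profile's range. Of the 5 closest, 4 were odorant receptors outside the class I set: Olfr448 (r = 0.99), Olfr918 (0.98), Olfr1044 (0.97) and Olfr1040 (0.96). The remaining one was Cyp3a13, a cytochrome P450 (0.96). The share of odorant receptors among the candidates was not counted, so the number of receptors among the closest genes is a description only. Olfr1044 had log2 values of 8.53, 9.83 and 9.88 on the occluded side, against 9.55, 9.16 and 9.58 on the contralateral side, low in occluded replicate 1 and contralateral replicate 2 as Nqo1 was. The 5 closest to the mean ventral profile, among 7102 candidates, were Sv2b, a synaptic vesicle protein, Nuf2, a kinetochore protein, the kinase Map4k4, the scaffold protein Frmd4a, and Pik3cb, a phosphoinositide kinase subunit, with r from 0.96 to 0.99. Sv2b had log2 values of 8.46, 8.13 and 8.20 on the occluded side, against 8.47, 8.29 and 8.06 on the contralateral side. All r are over 6 arrays and were picked as the highest among those candidates. The side differences of these 10 genes lay between -0.06 and 0.08. Both profiles had nearly equal means on the 2 sides (dorsal -0.0029 occluded and 0.0029 contralateral, ventral 0.0007 and -0.0007). Small side differences therefore followed from picking genes like them.

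The paralogs of the zone genes were measured in 12 of 12 cases, and 0 passed the test, with 8 above 0, 4 below 0 and a median of 0.02. Without occluded replicate 1 the median was -0.04 and 5 of 12 lay above 0. Acsm3, a mitochondrial acyl-CoA synthetase and neighbour of Acsm4, had log2 values of 8.60, 9.42 and 9.26 on the occluded side, against 9.04, 8.77 and 9.02 on the contralateral side. It was lowest in occluded replicate 1 as Acsm4 was, and its log2 difference was 0.15 with that array and 0.40 without it. Msx2, the closest relative of Msx1, was at 7.86, 7.18 and 7.62 on the occluded side, against 7.31, 7.51 and 7.52 on the contralateral side, highest in occluded replicate 1 and lowest in occluded replicate 2 as Msx1 was; its log2 difference was 0.11 with occluded replicate 1 and -0.05 without it.

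Ligands and partners of the guidance receptors showed no call either. Of 7 Slit, Robo and semaphorin genes of dorsoventral axon sorting, 5 were measured, 3 lay above 0 and 2 below, 0 passed the test, and the median was 0.08. Without occluded replicate 1 the median was -0.03 and 2 of 5 lay above 0. Slit2, a ligand of Robo receptors, was at 9.92, 9.90 and 9.77 on the occluded side and 9.67, 9.69 and 9.75 on the contralateral side, with no overlap (7.49% of all probe sets in that direction). Its log2 difference was 0.16 (SE 0.09), and 0.13 without occluded replicate 1. Slit1 was at 0.08 (SE 0.13), a sign that turned without that array (-0.03), and Sema3f, a repellent made by dorsal neurons, at 0.09 (SE 0.11), against 0.03 without it. All 5 genes were at their highest in occluded replicate 1, beside 46.0% of all probe sets.

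Bone morphogenetic protein and patterning genes, which stand close to Msx1 in development, were measured in 12 of 14 cases. The count above 0 was 11 of 12, with a median of 0.19, and 0 passed the test; without occluded replicate 1 it was 8 of 12 with a median of 0.03. Of the 12, 11 were at their highest in occluded replicate 1, beside 46.0% of all probe sets. Bmp4, a secreted ligand that induces Msx genes, was at 8.36, 7.84 and 8.06 on the occluded side and 7.93, 7.50 and 7.86 on the contralateral side, a log2 difference of 0.33 (SE 0.17). Bmp7, another ligand of the family, was at 0.30 (SE 0.17), and Id3, a target of the pathway, at 0.29 (SE 0.16). Without occluded replicate 1 these differences were 0.19 for Bmp4, 0.12 for Bmp7 and 0.14 for Id3.

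Retinoic acid is another signal graded along the epithelium. Of its pathway's 18 genes 15 were measured, and 11 lay above 0 and 4 below, with 0 past the test; the median was 0.13; without occluded replicate 1 it was -0.01, with 6 of 15 above 0. Rdh10, which makes retinaldehyde, was at 0.21 (SE 0.10). Its sides did not overlap, as in 1 of the 15 genes, beside 7.49% of all probe sets in that direction. The receptor Rxra was at 0.20 (SE 0.14), against 0.06 without occluded replicate 1, and the degrading enzyme Cyp26b1 at -0.15 (SE 0.10). Nqo1 is a target of the oxidative stress factor Nrf2, and of 10 other such targets 7 were measured; 4 lay above 0, 3 below, 0 passed the test, and the median was 0.05. The median was 0.00089 without occluded replicate 1, with 4 of 7 above 0. Gclc, of glutathione synthesis, was at -0.25 (SE 0.13), Gsr, which reduces glutathione, at 0.10 (SE 0.11), against 0.03 without occluded replicate 1, and the cystine transporter Slc7a11 at 0.38 (SE 0.24). The sides did not overlap for Gclc, lower on the occluded side, or Slc7a11, higher there (3.24% and 7.49% of all probe sets in those directions). For Slc7a11 occluded replicate 2 was at 8.33, while the other 5 arrays lay between 7.28 and 7.47.

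Regulators of odorant receptor choice were measured in 12 of 12 cases, 4 lay above 0 and 8 below, 0 passed the test, and the median was -0.02. The median was -0.10 without occluded replicate 1, and 2 of 12 then lay above 0. The sides did not overlap in 2 of the 12, Ebf1 and Ebf2, both lower on the occluded side (3.24% of all probe sets in that direction and 10.7% in either). Ebf1, an EBF factor, was at 11.73, 11.78 and 11.83 on the occluded side and 11.92, 11.93 and 11.90 on the contralateral side, a log2 difference of -0.13 (SE 0.08). Its relative Ebf2 was at -0.16 (SE 0.09) and the stress-linked factor Atf5 at 0.11 (SE 0.14), against 0.0056 without occluded replicate 1.

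Markers of other cell types also differed between the arrays. Over all probe sets the median deviation was -0.06 in contralateral replicate 2 and 0.10 in occluded replicate 1. Each list is given by the number measured, the range of its mean log2 level by side, and its median deviation in occluded replicate 1. Connective tissue, cartilage and bone genes (13 of 15 measured) averaged 11.22 to 11.65 on the occluded side and 11.05 to 11.23 on the contralateral side, and stood at 0.40. Endothelial genes (6 of 6) averaged 8.10 to 8.64 on the occluded side and 7.84 to 8.09 on the contralateral side, and stood at 0.49. Macrophage genes (6 of 6) averaged 8.42 to 9.11 on the occluded side and 8.02 to 8.36 on the contralateral side, and stood at 0.68. All 3 lists had their highest mean in that array, where Msx1, Nfia and Nfix were highest too; in contralateral replicate 2, low for Nqo1, the medians were -0.18, -0.35 and -0.42. The part of these cells in the values of the zone genes was not tested.

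Mature neuron markers (12 of 13) averaged 11.09 to 11.22 on the occluded side and 11.00 to 11.10 on the contralateral side. Single markers went both ways. Of the 12, 5 lay higher and 1 lower on the occluded side without overlap, beside 7.49% and 3.24% of all probe sets. The 3 of smallest p were Slc17a6 at -0.52 (SE 0.09), Cnga2 at 0.26 (SE 0.09) and Ano2 at 0.23 (SE 0.08). Without occluded replicate 1 they were at -0.52, 0.22 and 0.19. The list's median deviation in occluded replicate 1 was 0.18, beside 0.10 over all probe sets. In contralateral replicate 2, low for Nqo1 as well, it was -0.10, beside -0.06 over all probe sets. How the number of mature neurons bears on Nqo1, Acsm4 and the class I receptors was not tested. Immature neuron markers (5 of 7) averaged 11.84 to 11.99 on the occluded side, against 11.90 to 12.03 on the contralateral side. For sustentacular markers (6 of 8) the means were 11.42 to 11.56 on the occluded side, against 11.35 to 11.53 on the contralateral side. Horizontal basal cell markers (5 of 5) averaged 8.44 to 8.85 on the occluded side, against 8.45 to 8.65 on the contralateral side. Bowman gland markers (5 of 6) averaged 9.93 to 10.20 on the occluded side, against 9.79 to 9.91 on the contralateral side. For respiratory ciliated markers (6 of 7) the means were 8.76 to 8.98 on the occluded side, against 8.61 to 8.92 on the contralateral side. Ensheathing glia markers (5 of 6) averaged 8.32 to 8.44 on the occluded side, against 8.08 to 8.25 on the contralateral side. Vomeronasal markers (2 of 3, without Trpc2) averaged 10.44 to 10.85 on the occluded side, against 10.48 to 10.56 on the contralateral side. Median deviations in occluded replicate 1 were 0.26 for horizontal basal, 0.27 for vomeronasal, 0.07 for sustentacular and 0.07 for Bowman gland markers. They were 0.05 for respiratory ciliated, 0.0023 for ensheathing glia and -0.0027 for immature neuron markers. The mean levels of these lists overlapped between the sides except for Bowman gland and ensheathing glia, which lay higher on the occluded side. Those of the endothelial and macrophage lists did not overlap either and also lay higher there. How often the means of other lists do so was not counted. No marker of these lists passed the limma test, and array values have no zero that would show a cell type to be absent.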

How the data were processed

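Expression was measured in 6 samples, 3 per side. Per the labels, the authors derived the deposited log2 values by core-gene RMA in Expression Console (version not given in the sources used here). That their base is 2 was read from the range of values. The method makes probe distributions alike across arrays, which can shrink differences shared by many genes. Arrays have no read depth, and their number limits the precision. Of 23332 probe sets, 14996 had a single gene symbol, 1019 had several and 7317 had none.

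The sides were tested in R 4.3.3 with limma 3.58.1 (two-sided, lmFit then eBayes, no replicate block) over all probe sets, with Benjamini-Hochberg adjustment and a threshold of 0.05; the fit was tested on simulated data. With 3 arrays a side the smallest two-sided p of an exact permutation test is 0.1, so none was used. The labels give 3 mice but do not tie arrays to them, so p-values measure the spread between arrays. Members and lists were chosen with earlier results of these data known. Lists of zone-related genes and the mature neuron list name the 3 genes of smallest p, besides paralogs, guidance genes and Omp. The other cell type lists are given without single genes. Lists were described by counts and medians, with no list test. Alternatives were a replicate block, leaving out each array, centring, cyclic loess, a filter on the lowest 25% of probe sets, single-symbol probe sets only, and other variance models. Promoters came from RefSeq (GRCm38.p6); no window for Nfib was used.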

Additional observations from a re-analysis of the deposited data

How the results depend on the processing

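The member differences kept their sign in 99 of 105 comparisons with an alternative, and 0 of the 105 passed the limma threshold (lowest adjusted p 0.592). The log2 differences cannot change with the replicate block, the filter on low probe sets, single-symbol probe sets only or other variance models. Comparisons with these settings are among the 99 and say nothing about sign, so the 99 of 105 overstates how stable the signs were. Signs turned for Nqo1 (0.030), Msx1 (-0.054) and Nfix (-0.044) without occluded replicate 1, for Acsm4 without occluded replicate 2 (-0.0062) or 3 (-0.045), and for Nfib with its other probe set (0.038). Leaving out arrays moved Acsm4 between -0.045 and 0.38, Msx1 between -0.054 and 0.23, and Nfix between -0.044 and 0.21. Over all alternatives Ncam2 ran from -0.32 to -0.17 and Robo2 from -0.16 to -0.03. The number of probe sets called ranged from 0 to 1 as arrays were left out, the 1 being an unnamed probe set without contralateral replicate 2, and was 1 (S100a5) with single-symbol probe sets only. The zone medians ran from -0.08 to 0.02 (dorsal) and -0.07 to 0.08 (ventral), and the class I median from -0.09 to 0.34. All moved by less than 1 SD of the arrays, an SD that includes occluded replicate 1. For the class I receptors it was 0.37 and was widened by that array, so it is a loose limit for them. The contrast of occluded replicate 1 was -0.58 with Nqo1 and Acsm4 alone as dorsal genes, added after seeing the data. With the replicate block 0 probe sets were called. Deviations of same-numbered arrays correlated at 0.009, 0.166 and -0.041. With 3 arrays a side these values cannot settle whether same-numbered arrays share a mouse. The cause of these changes was not tested.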

Other observations

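The 92 receptors taken as class I were not all neighbours. In 88 of them, which form a single run of genes on chromosome 7, the median deviation in occluded replicate 1 was -0.55, and 70 of the 88 (79.5%) were lowest there. The other 4, Olfr693, Olfr695, Olfr697 and Olfr698, lie apart from that run, and whether they belong to class I was not checked. Their median deviation in occluded replicate 1 was 0.11, and 0 of 4 were lowest. This split was made after the values had been seen. Without the 4, the median log2 difference between the sides was 0.06.

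The other odorant receptors spread widely in that array as well, in both directions. The quartiles of the 620 deviations ran from -0.30 to 0.30 in occluded replicate 1, from -0.10 to 0.26 in occluded replicate 2 and from -0.12 to 0.27 in occluded replicate 3. They ran from -0.23 to 0.03, from -0.24 to 0.04 and from -0.05 to 0.20 in contralateral replicates 1 to 3. In occluded replicate 1, 168 of the 620 were at their lowest and 205 at their highest, beside 15.2% and 46.0% of all probe sets.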
